A study of Rattus norvegicus with 2 samples.

Results

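The voltage-gated sodium channel genes Scn1a, Scn2a, Scn3a, Scn8a, Scn9a, Scn10a, Scn11a, Scn2b and Scn4b were examined in dorsal root ganglia (DRGs), which hold the cell bodies of sensory neurons (SNs). They were chosen as a list of alpha and beta subunit genes, through the array's probe sets that carry 1 of these symbols and no other. All 9 listed genes were found, among 14217 genes with such a probe set, and they were covered by 10 of 31042 probe sets. Each probe set pools several short probes for the same transcript into a single signal.

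The tumor-side sample was DRGs of female Sprague-Dawley rats, 4 weeks old, whose right tibia had received IP-B12 rat pulmonary carcinoma cells in the marrow cavity, a line with osteolytic growth, and the control-side sample was DRGs of the left tibia. Tissue was taken 14 days after inoculation, and RNA of each side was hybridized to 1 array, made from 100 ng of total RNA. The sources do not state how many rats gave RNA. The side without tumor came from animals that carried the tumor elsewhere, and no sham inoculation of the left tibia is described, so tumor and inoculation cannot be told apart.

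Voltage-gated sodium channels open when the membrane depolarises and carry the inward current of the action potential. One large alpha subunit forms the pore, and smaller beta subunits modify its gating and anchor it in the membrane. In SNs the alpha subunits are divided by their response to tetrodotoxin (TTX), a pore blocker from puffer fish, into TTX-sensitive channels, which many neurons use, and TTX-resistant channels, which are typical of nociceptors. Mutations of the human genes SCN9A and SCN11A are known to abolish or to heighten pain. After a cut of the sciatic nerve in rats, Scn3a is known to be re-expressed in DRGs, while Scn10a and Scn11a decline.

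With 1 array per side there was no replicate error and no test, so every difference below describes these 2 arrays. The unit is the MAS 5.0 signal intensity on a linear scale, and log2 ratios set the tumor side over the control side, with nothing added to the signals. Where a gene had more than 1 probe set, the one with the higher mean log2 signal stands for it. Median signals were 72.7 on the tumor-side array and 69.0 on the control-side array, and the median log2 ratio of genes was 0.08, so a ratio of 0 lies slightly below that of the median gene. A gene was kept by the signal rule if either of its signals reached the median of its array, which 9695 genes did. The 3′ over 5′ signal ratio of beta-actin, which reflects RNA integrity, was 9.22 on the tumor-side and 8.79 on the control-side array, and that of GAPDH was 1.229 on the tumor-side and 1.196 on the control-side array. Neuronal markers were bright on both arrays, with Stmn2 at 10218 in tumor-side and 10037 in control-side DRGs and Prph at 8852 in tumor-side and 8896 in control-side DRGs.

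On its brightest probe set, none of the 9 sodium channel genes differed by a fold of 2 between the sides, and none differed by a fold of 1.5 as measured. Scn2a, higher on the tumor side by a fold of 1.496, and Scn3a, lower by a fold of 1.466, came close to 1.5. After quantile normalization, centring or loess the log2 ratio of Scn3a was -0.62 to -0.64, past a fold of 1.5. Among all genes that met the signal rule, 0.134% were higher on the tumor side by a fold of 2 or more and 0.186% were lower, and without that rule 4.31% were higher and 3.71% lower. At a fold of 1.5 the shares were 1.19% higher and 0.743% lower with the rule, and 7.97% higher and 6.25% lower without it. Beside these shares, a count of 0 does not set 9 genes apart from genes in general. Of the 9, 7 were above the signal rule. Their median log2 ratio was -0.08, against 0.08 for all genes above the rule, with 3 genes above 0 and 4 below it. One of the 4, Scn3a, met the rule through its control-side signal alone, and the median of the other 6 was -0.03. Of all genes above the rule 29.1% were below 0, and 5 of the 7 members were below the median gene. For 6 genes both signals reached the array medians, and all 6 lay within a fold of 1.1 as measured, as did 58.1% of the 9309 genes with both signals at the medians. After quantile normalization, centring or loess, Scn9a, Scn10a and Scn4b lay past a fold of 1.1. Their log2 ratios were then -0.19 to -0.21 for Scn9a, -0.19 to -0.20 for Scn10a and -0.14 to -0.17 for Scn4b.

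**Figure D1:**
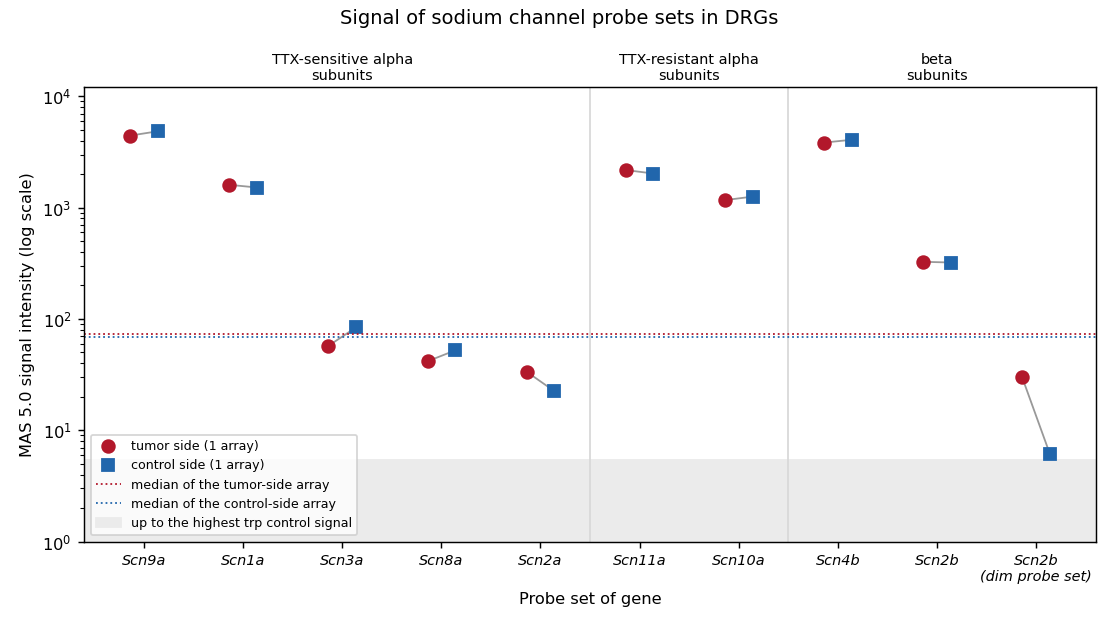
MAS 5.0 signal intensity on a log scale for each sodium channel probe set, with the tumor-side array as circles and the control-side array as squares, 1 array each, grouped by subunit class. Dotted lines mark the medians of the tumor-side (72.7) and control-side (69.0) array and grey the signals up to the highest trp control probe set. Scn9a, Scn1a, Scn11a, Scn10a, Scn4b and the brighter Scn2b probe set lie well above the medians with almost level pairs, while Scn3a, Scn8a, Scn2a and the dim Scn2b probe set lie near or below them.

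The order of the 9 genes by signal was the same on both arrays, from Scn9a through Scn4b, Scn11a, Scn1a, Scn10a, Scn2b, Scn3a and Scn8a to Scn2a. Probe sets differ in how strongly they bind their target, so this is an order of signals and not of transcript amounts. The technical spread was described by how far the log2 ratios of different probe sets for one gene scattered (SD, over genes within a fold of 2 of a member's mean signal) and by the middle 95% of log2 ratios among the 500 probe sets closest to the member in mean signal. Both widen as the signal falls, from an SD of 0.057 at the signal of Scn9a to 0.59 at that of Scn2a.

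Among TTX-sensitive alpha subunits, Scn9a encodes Nav1.7, which amplifies small depolarisations in nociceptors. Its signal was 4436 in tumor-side DRGs and 4855 in control-side DRGs, at percentile 98.7 of the tumor-side and 99.0 of the control-side array. The log2 ratio was -0.13, outside the range of -0.08 to 0.20 that held the middle 95% of probe sets of like signal, of which 8 of 500 had a ratio as low. It was the one gene of the 9 whose brightest probe set fell outside that range. For comparison, the log2 ratios of 13 pan-neuronal genes ran from -0.15 for Rbfox3, a splicing factor of neuronal nuclei, to 0.14 for Elavl3, an RNA-binding protein of neurons, with 8 above 0 and 5 below. Rbfox3 and Elavl3 were both dimmer than Scn9a, where spread is wider. Their second probe sets had log2 ratios of 0.07 for Rbfox3 and 0.15 for Elavl3. Nearer to Scn9a in signal, the pan-neuronal gene Gap43 had 3582 in tumor-side and 3935 in control-side DRGs. Its log2 ratio of -0.14 was about as low as that of Scn9a, while those of Thy1 and Eno2, also near in signal, were 0.00 and 0.05. No second probe set of Scn9a was present to repeat the value.

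Scn1a encodes Nav1.1, which SNs with myelinated fibers use strongly. It had 1603 in tumor-side DRGs and 1516 in control-side DRGs, a log2 ratio of 0.08. This ratio equals that of the median gene, and it turned to values just below 0 after quantile normalization, median centring or loess. Scn8a encodes Nav1.6, the main channel of nodes of Ranvier. Its only probe set read 41.7 in tumor-side and 52.2 in control-side DRGs, below the median of both arrays, with a log2 ratio of -0.33 inside the range of -0.84 to 0.78 of probe sets of like signal. This probe set is of the kind that recognises several transcripts of a gene, and whether it reports the main transcript of DRGs was not tested.

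Scn3a encodes Nav1.3, an embryonic channel. Its signal was 57.4 in tumor-side DRGs and 84.1 in control-side DRGs, and only the control-side signal reached the median of its array. The log2 ratio of -0.55 was the lowest of the 9, in the direction opposite to its known rise after nerve cut, and it lay just inside the range of -0.57 to 0.78 of probe sets of like signal, of which 16 of 500 had a ratio as low. Scn2a encodes Nav1.2, a channel mainly of the brain and spinal cord. It was the dimmest of the 9 and had 33.6 in tumor-side DRGs and 22.5 in control-side DRGs, with a log2 ratio of 0.58 inside a range of -1.02 to 1.12. Scn3a and Scn2a lie next to each other in the genome with no other annotated gene between them, and their ratios went opposite ways at low signals.

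The TTX-resistant alpha subunits were bright and, as measured, close to level between the sides. Scn10a encodes Nav1.8, which carries most of the upstroke of the action potential in nociceptors. Its signal was 1167 in tumor-side DRGs and 1256 in control-side DRGs, a log2 ratio of -0.11 at the lower edge of the range of -0.11 to 0.29 of probe sets of like signal, of which 15 of 500 were as low. The Scn10a ratio fell to -0.20 after quantile normalization and to -0.19 after centring or loess. Scn11a encodes Nav1.9, which opens near the resting potential and sets excitability. It had 2176 in tumor-side DRGs and 2024 in control-side DRGs, a log2 ratio of 0.10, above 0 under every alternative run. The Scn11a ratio was 0.02 above the median gene, within its SD of 0.067. It fell to 0.03 after quantile normalization or loess and to 0.02 after centring. Both channels that decline after nerve cut thus differed by less than a fold of 1.1 as measured, on opposite sides of 0. Both are on chromosome 8, while Scn3a, Scn2a, Scn1a, Scn9a and Scn7a share chromosome 3.

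**Figure D2:**
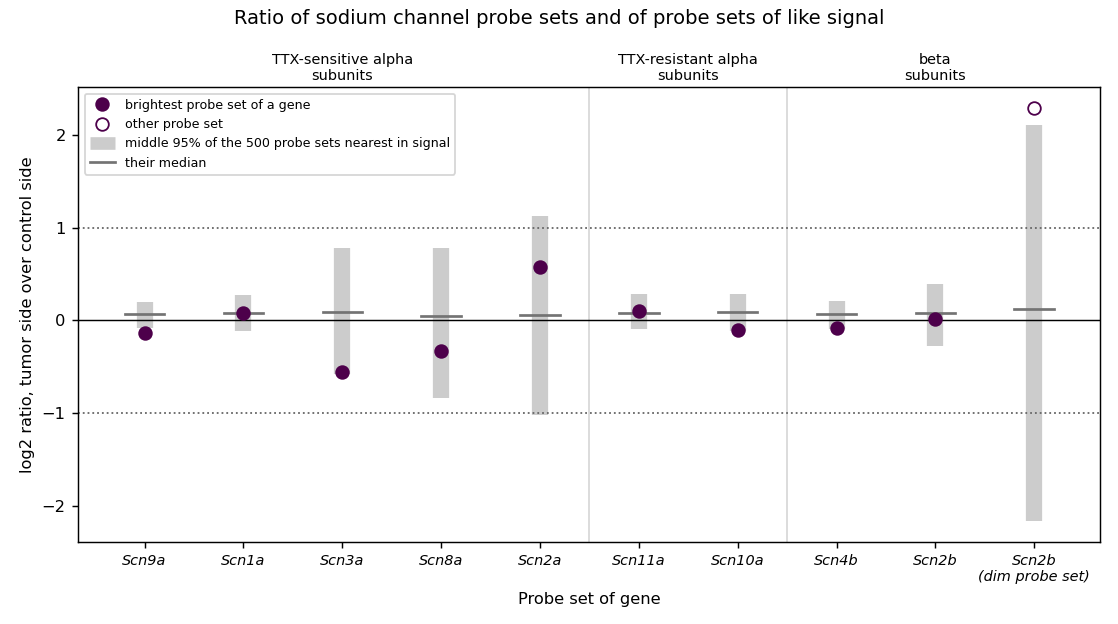
Each sodium channel probe set's log2 ratio (tumor-side over control-side signal), with filled points for the brightest probe set of a gene and an open point for the other Scn2b probe set. Grey bars are the middle 95% of log2 ratios of the 500 probe sets nearest in mean signal, ticks are their medians, and dotted lines mark a fold of 2. Scn9a (-0.13) lies just below its bar, the dim Scn2b probe set (2.29) just above its own, and the bars widen towards Scn2a and the dim Scn2b probe set.

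The stretches of 250 bases before the RefSeq start of 4 members are shown here, because Scn9a, Scn10a and Scn11a are the channels that define nociceptor firing and Scn3a had the largest ratio in size among members above the rule. They are from build GRCr8, all of genes on the minus strand, and capitals mark matches on either strand to TGANTCA (AP-1, bound by Jun and Fos), TGACG (a shortened cAMP response element), TGTGGT (the RUNX core) or TATAAA (the TATA box). Scn9a is at chr3:71701378-71701627, Scn10a at chr8:128340299-128340548, Scn11a at chr8:128444719-128444968 and Scn3a at chr3:70666199-70666448.
Scn9a: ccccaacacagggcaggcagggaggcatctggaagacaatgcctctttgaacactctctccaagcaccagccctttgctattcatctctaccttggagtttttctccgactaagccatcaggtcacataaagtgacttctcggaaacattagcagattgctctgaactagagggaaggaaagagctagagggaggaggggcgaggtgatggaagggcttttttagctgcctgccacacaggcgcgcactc
Scn10a: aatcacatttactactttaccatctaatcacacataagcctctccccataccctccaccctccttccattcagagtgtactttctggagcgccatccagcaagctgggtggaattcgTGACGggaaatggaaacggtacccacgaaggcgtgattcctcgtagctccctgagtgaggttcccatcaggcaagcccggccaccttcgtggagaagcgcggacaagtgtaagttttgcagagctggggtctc
Scn11a: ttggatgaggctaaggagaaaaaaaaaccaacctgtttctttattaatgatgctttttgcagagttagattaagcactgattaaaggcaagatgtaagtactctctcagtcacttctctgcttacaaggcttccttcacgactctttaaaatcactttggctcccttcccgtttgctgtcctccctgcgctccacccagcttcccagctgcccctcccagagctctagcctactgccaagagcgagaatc
Scn3a: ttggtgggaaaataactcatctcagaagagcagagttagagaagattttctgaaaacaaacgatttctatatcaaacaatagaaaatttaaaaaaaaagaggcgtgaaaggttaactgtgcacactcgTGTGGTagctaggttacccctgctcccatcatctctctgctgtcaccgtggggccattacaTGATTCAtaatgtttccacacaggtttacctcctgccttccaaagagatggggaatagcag

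Of the 9 members, 8 had such a stretch in the table used, Scn1a being the other. The Scn10a stretch held TGACG at 133 bases before the start, and no other member's did, while 18.2% of 33469 stretches of the same length held it. The Scn3a stretch held TGTGGT at 122 and TGATTCA at 61 bases before the start, with no overlap between them. Among all stretches, 14.5% held TGTGGT and 6.34% held TGANTCA. The Scn2b stretch held the reverse complement of the RUNX core, ACCACA, at 70 bases before the start. No member's stretch held TATAAA, as against 12.9% of all. The share of G and C separated the members more than these letters did, with 86.0% for Scn8a and 71.6% for Scn4b, 53.2% for Scn10a, 52.4% for Scn9a, 46.4% for Scn11a and 38.8% to 41.6% for Scn2b, Scn2a and Scn3a, beside a median of 51.2% over all. A match describes letters only and does not show that a factor binds.

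Of the beta subunits, Scn4b encodes the subunit known as the source of the open-channel blocking peptide of resurgent current. It had 3837 in tumor-side DRGs and 4069 in control-side DRGs, a log2 ratio of -0.08. This was just inside the range of -0.09 to 0.21 of probe sets of like signal, of which 13 of 500 were as low. Scn2b encodes a subunit that is linked to the alpha subunit by a disulfide bond. Its brighter probe set, designed on an expressed sequence tag, had 326 in tumor-side and 321 in control-side DRGs, a log2 ratio of 0.02. Its other probe set, designed on the RefSeq transcript, had 30.0 in tumor-side and 6.14 in control-side DRGs, and this log2 ratio of 2.29 lay above the range of -2.16 to 2.11 of probe sets of like signal, of which 7 of 500 were as high. The control-side value was close to the highest of 3 trp control signals of that array, 5.39, and trp is a bacterial gene. This probe set was below the median of both arrays. The mean of both log2 ratios would be 1.15, past a fold of 2, through this dim probe set. Scn2b and Scn4b are neighbours on chromosome 8 with no annotated gene between them.

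Other genes of the family were read in the same way. Scn7a encodes Nax, a sodium-sensing relative of the voltage-gated channels found in non-myelinating Schwann cells and some neurons. It had 9177 in tumor-side and 9077 in control-side DRGs, at percentile 99.9 of either array, with a log2 ratio of 0.02. Scn3b encodes a further beta subunit and had 795 in tumor-side and 847 in control-side DRGs, a log2 ratio of -0.09, with 599.7 in tumor-side and 600.1 in control-side DRGs on a second probe set. Scn4a encodes Nav1.4, the channel of skeletal muscle, and had 4.40 in tumor-side and 2.08 in control-side DRGs, both below the highest trp control signal, which was 4.63 on the tumor-side and 5.39 on the control-side array, so no fold is given. Other skeletal muscle genes differed between the sides, mostly at low signals. Of 15 measured, 11 had a signal lower by a fold of 2 or more on the tumor side, and for 8 of these it was the control-side signal that met the rule, such as that of Myl1, a myosin light chain, with 39.4 in tumor-side and 236 in control-side DRGs. Of the 3 with both signals at the medians, Acta1, skeletal actin, had 192 in tumor-side and 397 in control-side DRGs, Myh1, a myosin heavy chain, 1742 in tumor-side and 1583 in control-side DRGs and Pvalb, which is also on the list for SNs with myelinated fibers, 1199.7 in tumor-side and 1063 in control-side DRGs. The summed signal over all 15 was 3428 in tumor-side and 4171 in control-side DRGs, and their part in any sodium channel value was not tested.

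The proteins that place sodium channels at the axon initial segment and node were also close to level. Of 10 measured, 8 met the rule, with a median log2 ratio of 0.00 and no gene past a fold of 2. Ank3, which encodes ankyrin G, the master scaffold of both sites, had 1709 in tumor-side and 1613 in control-side DRGs on its brightest probe set. A second one had 538 in tumor-side and 387 in control-side DRGs, a log2 ratio of 0.48. Sptbn4, the beta spectrin that ties ankyrin G to the actin skeleton, had the lowest ratio of the 8, with 140 in tumor-side and 171 in control-side DRGs and a log2 ratio of -0.29. Nfasc, which encodes the adhesion protein neurofascin, had 711 in tumor-side and 739 in control-side DRGs with a log2 ratio of -0.06, and the log2 ratios of its 4 dimmer probe sets ran from -0.67 to 0.55. Cntnap1, a protein of the junctions beside the node, had 203 in tumor-side and 216 in control-side DRGs.

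Of 14 measured partners and regulators of the channels, 11 met the rule, with a median log2 ratio of -0.03, a range of -0.13 to 0.07 and no gene past a fold of 2. Fgf13, an intracellular protein of the fibroblast growth factor family that binds the channel's tail and modifies its gating, had 8424 in tumor-side and 8823 in control-side DRGs. Fgf12, its relative, had 4239 in tumor-side and 4037 in control-side DRGs. S100a10, which carries Nav1.8 to the cell surface, had 9656 in tumor-side and 9369 in control-side DRGs. Dpysl2, a collapsin response mediator that steers Nav1.7 trafficking, had 7836 in tumor-side and 8246 in control-side DRGs, and Prkce, a kinase of nociceptor sensitisation, had the lowest ratio of the 11, with 686 in tumor-side and 751 in control-side DRGs.

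The SN lists show how the members sit among other genes of the same cells. In bulk tissue fewer cells of a type and less RNA per cell cannot be told apart. The 13 pan-neuronal genes above the rule had a median log2 ratio of 0.02, the 6 nociceptor genes of 0.00 and the 10 genes of SNs with myelinated fibers of -0.01, beside 0.08 for all genes, -0.08 for the 7 members and -0.03 for the 6 members with both signals at the medians. Trpv1, the acid-sensing channel of nociceptors, had 916 in tumor-side and 996 in control-side DRGs, a log2 ratio of -0.12, the lowest of the 6 nociceptor genes. P2rx3, the ATP-gated channel of another nociceptor class, had 2292 in tumor-side and 2107 in control-side DRGs, and its log2 ratio of 0.12 was the highest of the 6. The neuropeptide genes Calca and Tac1 had log2 ratios of 0.03 and 0.05, and Ret and Gfra2, which encode receptors for growth factors of the GDNF family, -0.05 and -0.03. Satellite glia genes had a median of 0.12 over 4 genes and Schwann cell genes of 0.00 over 6. Within the members, Scn9a, Scn10a, Scn4b, Scn3a and Scn8a were below 0 as measured and under every scaling alternative run. Quantile normalization, centring and loess lowered the ratio of every member, and a pseudocount cannot change a sign. Staying below 0 is therefore no check on these genes. The sign of Scn1a and Scn2b depended on the scaling.

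**Figure D3:**
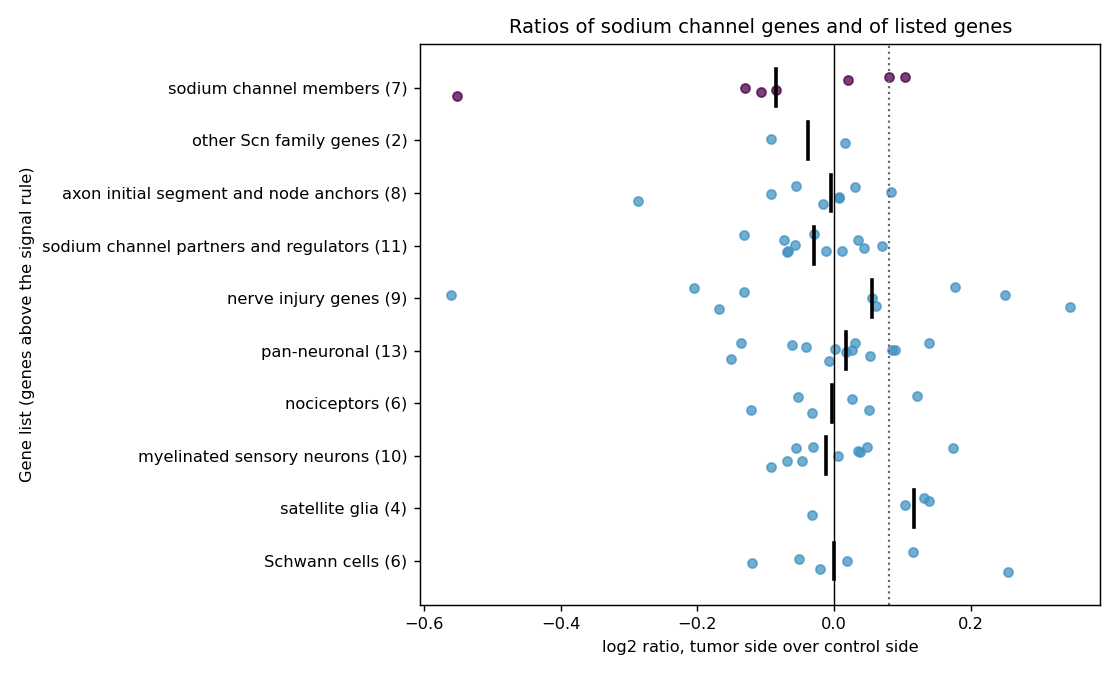
Points are genes that met the signal rule, sodium channel members at the top and listed genes under them, by their log2 ratio (tumor-side over control-side signal), and brackets give the number of points. Short vertical bars are list medians, the solid line is 0 and the dotted line is the median gene that met the rule, 0.08. The members have a median of -0.08 and their lowest point is Scn3a at -0.55, which met the rule through its control-side signal alone. Without Scn3a their median is -0.03.

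Genes known to change in SNs after nerve cut gave the context for Scn3a, Scn10a and Scn11a. Of 14 measured, 9 met the rule, with a median log2 ratio of 0.06, 5 of them above 0 and 4 below, and no gene past a fold of 2. The median was -0.04 after quantile normalization, -0.03 after centring or loess and -0.08 over all 14. Atf3, a transcription factor that marks cut SNs, had 160 in tumor-side and 184 in control-side DRGs, a log2 ratio of -0.20. Npy, a neuropeptide that large SNs make after nerve cut, had 238 in tumor-side and 350 in control-side DRGs, a log2 ratio of -0.56 that was the lowest of the 9. Gal, another injury neuropeptide, had 216 in tumor-side and 181 in control-side DRGs, a log2 ratio of 0.25. Flrt3, an adhesion protein, had 462 in tumor-side and 364 in control-side DRGs, a log2 ratio of 0.34. Cacna2d1, the calcium channel subunit bound by gabapentin, had 1060 in tumor-side and 1016 in control-side DRGs.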

How the data were processed

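The authors summarised each array with MAS 5.0 at default settings (MAS5 in the submitters' processing notes). They deposited signal intensity values on a linear scale for 31099 probe sets, 57 of them controls. What scaling was applied is not stated. A single gene symbol was given for 20826 of the others, several symbols for 436 and none here for 9780. All 9 members matched RefSeq (GRCr8) by gene identifier under the same symbol. No detection calls were used and no further normalization was applied. With 1 array per side, their number limits the precision.

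The members and lists were chosen with earlier results of these data known. Named were all members, other family genes measured and, of each list, genes above the signal rule with the 4 largest ratios in size or the 3 highest signals; the text gives a choice of these, and some others, made after values were seen. Alternatives were quantile normalization, centring on the median, loess (span 0.3), a pseudocount of 11.1 (percentile 20), the mean over probe sets, probe sets with the suffixes s, x or a left out, other signal filters, ratios relative to pan-neuronal genes, and folds of 1.5 and 3. Sequences are RefSeq's. Scripts were tested on simulated data, with folds put only into genes brighter than Scn3a, Scn8a and Scn2a, so the test did not cover signals as low as theirs. The software was statsmodels 0.14.6, pandas 2.3.3, numpy 2.4.6 and matplotlib 3.10.9 under Python 3.11.15.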

Additional observations from a re-analysis of the deposited data

How the results depend on the processing

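The count of 0 members past the fold, in either direction, held under 8 other settings and without probe sets of suffix s, x or a. The mean over probe sets, chosen after seeing the data like the leaving out of those probe sets for this count, gave 1 higher, Scn2b, and 0 lower. Among the 8 settings, a fold of 3, a pseudocount and the filter on both signals could not have raised the count. The fold of 1.5 was run on unscaled values only, and Scn3a passed it after quantile normalization, centring or loess. The median log2 ratio of the members above the rule stayed below 0 under its 8 alternatives, from -0.17 with median-centred log2 ratios, which take 0.08 from every value, to -0.03 with both signals at the medians. Quantile normalization, centring and loess lowered the ratio of every member, so they could not have brought this median above 0. Of 62 member values, 48 changed by less than the SD between a gene's probe sets at that signal and 14 by more. For the 8 members with 1 probe set the mean over probe sets repeats the main value. Leaving out probe sets by suffix also changed no member value that remained. These repeats are among the 48 and say nothing on stability. The sign changed in 7, for Scn1a and Scn2b. Scn2b ran from -0.06 to 1.15, the higher with the mean over both probe sets. Scn8a gave no value without probe sets of suffix a. Among all genes that met the rule, the tumor side was higher for 13 by a fold of 2 or more and lower for 18. Quantile normalization gave 10 and 22, centring 10 and 24, and loess 10 and 23. The counts were 115 and 72 at a fold of 1.5, 4 and 7 at a fold of 3, 613 and 527 without a signal filter, 107 and 70 with the mean over probe sets, and 5 and 6 where the medians had to be reached on both sides, changes that follow from the settings. The skeletal muscle median, -1.62, was 0.14 under that last filter, which leaves out genes that are dim on one side. Of 77 medians of the gene lists, 14 changed sign, that of nerve injury genes in 4. No paired analysis was possible because only 1 array was made per side. Low signal limits Scn3a, Scn8a and Scn2a.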
